A study of Homo sapiens with 12 samples.

Results

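HCT116 cells kept for 24 h in 10 mM NH4Cl were compared with untreated HCT116 cells by RNA sequencing. The comparison holds the 6 libraries labelled NH4Cl and Control, 3 of each, of the 12 libraries of the series, and they were paired by replicate number. Genes with a mean of at least 1 FPKM (fragments per kilobase of exon, scaled to the mapped reads of the library) over the 12 libraries were tested, which were 12341 of the 25733 genes in the table. The study asks how ammonia, made by gut bacteria, acts on TGF-β signalling in colorectal cancer, and HCT116 is an established line from a human colorectal carcinoma. All cells grew in medium with 10 percent serum. The control cells are labelled as having no treatment, and the study's sequencing methods call them untreated, while its culture methods describe a vehicle. The remaining 6 libraries came from cells given TGF-β for 1 h, either after vehicle or after 23 h of NH4Cl. Concentration and times are those of the study's methods, since the labels give none. Nothing says that replicates were separate cultures, so each p-value measures spread between these samples, which may be technical.

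Ammonium is in balance with ammonia, a weak base that crosses membranes and gathers in acidic compartments such as lysosomes, where it raises the pH. Lysosomes release cholesterol and iron to the cell and carry the machinery that senses nutrients, and the factors SREBP2, SREBP1 and TFEB raise genes of sterol synthesis, fatty acid synthesis and lysosomes. Epithelial cells also produce chemokines under NF-κB, a family of transcription factors that is held in the cytoplasm by inhibitor proteins whose genes it induces in turn.

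Reads assigned to genes numbered 16647681, 16700597 and 15298508 in control replicates 1, 2 and 3, and 14956458, 15880031 and 14931020 with NH4Cl. Replicate 3 stood apart in both groups. Over genes with at least 20 reads, the chi-square per gene was 2.29 between control replicates 1 and 2, against 29.1 and 31.7 when either was compared with replicate 3. The same values with NH4Cl were 1.76, 25.6 and 25.4. Mitochondrial genes took 2.87%, 2.99% and 5.12% of reads in the controls and 3.06%, 3.18% and 5.07% with NH4Cl. CA9, a carbonic anhydrase induced by low oxygen, measured 23.3, 19.7 and 85.99 FPKM in the controls and 21.4, 23.9 and 83.9 FPKM with NH4Cl. SLC2A1, a glucose transporter of the same kind of response, measured 283, 261 and 619 FPKM in the controls and 257, 266 and 586 FPKM with NH4Cl. Both genes were high in replicate 3 of either group, and neither passed the test for NH4Cl, with log2 fold changes of 0.04 and -0.06. Other targets of low oxygen did pass and rose, VEGFA by 0.32 (limma adjusted p = 0.00531), INSIG2 by 0.22 (limma adjusted p = 0.0247) and P4HA1 by 0.17 (limma adjusted p = 0.0257). They were 3 of 18 tested in that list, and 0 fell by limma, with a median of 0.10, against 7.42% higher and 6.14% lower over all genes tested. Since replicate 3 stood apart, counts of the gene lists below are also given without it. Without replicate 3, INSIG2 and P4HA1 were no longer called (limma adjusted p 0.119 and 0.116), at log2 fold changes of 0.225 and 0.156.

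Markers of the epithelium summed to 2524, 2415 and 3325 FPKM in the controls and 2281, 2306 and 2906 FPKM with NH4Cl, from the keratins KRT8 and KRT18 above all. The sum was lower with NH4Cl in 3 of 3 pairs, as were KRT8, KRT18, KRT19, CDH1 and CEACAM5. EPCAM, VIL1 and CDX2 were higher in 3 of 3 pairs, of which VIL1 passed the test (0.18, limma adjusted p = 0.0382). KRT19, among the lower markers, passed too (-0.39, limma adjusted p = 0.000131), while KRT8 and KRT18 did not. CEACAM5, a marker of many colorectal tumours, lay between 0.02 and 0.28 FPKM. Fibroblast markers summed to 8.02, 8.48 and 10.6 FPKM in the controls and 10.1, 10.1 and 11.03 FPKM with NH4Cl, most of it LUM, while COL1A2, COL3A1 and DCN were at 0.05 FPKM or under. Endothelial markers summed to 1.74, 1.95 and 4.17 FPKM in the controls and 2.71, 3.00 and 5.86 FPKM with NH4Cl, most of it VWF. Both sums were higher with NH4Cl in 3 of 3 pairs. Immune markers summed to between 1.47 and 3.21, with LYZ the highest of them in each library. The part of these in the results was not tested. All libraries came from the HCT116 line, so the sums describe marker RNA in its cells. They do not measure a share of fibroblasts, endothelium or immune cells. In bulk RNA, fewer cells that express a marker and less RNA per cell cannot be told apart.

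With NH4Cl, 21 of 26 genes of cholesterol synthesis and uptake and 9 of 15 of fatty acid synthesis rose, together with the secreted stress factor GDF15 and the lysosomal enzyme GAA. Of chemokines and cytokines 11 of 16 fell, with 9 of 21 genes of the NF-κB pathway and 13 of 39 of DNA replication. The limma test on log2(FPKM + 1), with a term for replicate number and Benjamini-Hochberg adjustment over the 12341 genes, called 1674 of them (13.6%) at an adjusted p under 0.05. Of these, 916 were higher (7.42%) and 758 lower (6.14%), each in the same direction in 3 of 3 pairs. With each library centred on its median, 777 were higher and 892 lower, so which side was larger depended on the centring. The FPKM of the groups did not overlap in 915 of the 1674, and in 2159 of the 12341 genes tested (17.5%), beside 13.6% called. The median log2 fold change was 0.27 among higher genes, -0.25 among lower genes and 8.41e-05 over all genes tested. A size of at least 1 was reached by 11 genes, 7 higher and 4 lower, and a size of at least 0.5 by 164, of which 98 were higher and 66 lower. Another 776 called genes lay under 0.25. All these sizes are differences of log2(FPKM + 1), which are smaller than those of log2 FPKM where FPKM is low. SELPLG went from a mean of 3.49 FPKM in the controls to 7.53 FPKM with NH4Cl and stood at 0.94. RAB33A went from 0.764 to 4.47 FPKM and stood at 1.60. Counts by size therefore leave out some genes of low FPKM.

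**Figure D1:**
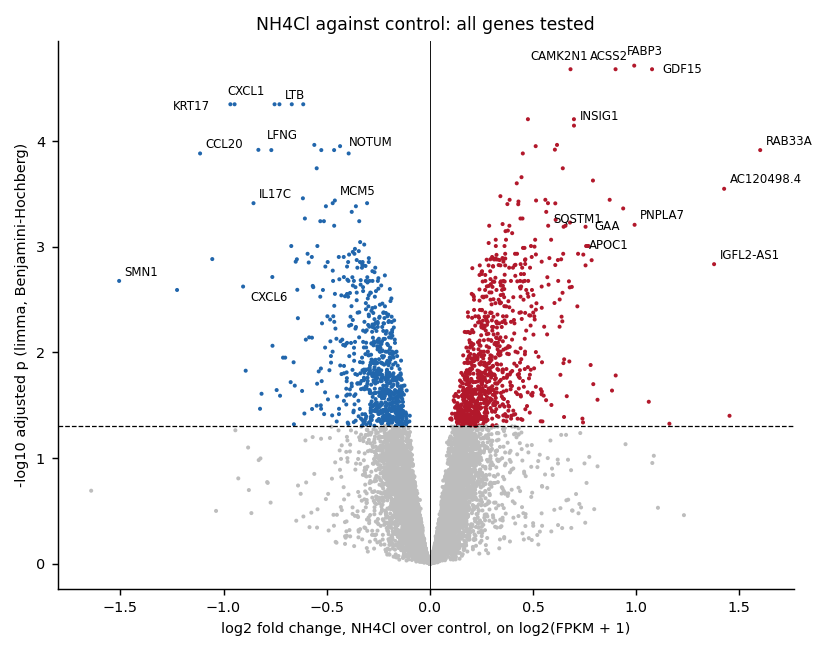
Each point is 1 of the 12341 genes tested, with the log2 fold change of NH4Cl over control on the horizontal axis and -log10 of the limma adjusted p on the vertical axis. Red points are the 916 genes called higher and blue points the 758 called lower, and the dashed line marks 0.05.

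The number of calls depended on the replicate term. Without the replicate block, limma called 47 genes (0.381%), 33 higher and 14 lower, and all 47 were also called with it. The median standard error over genes tested was 0.06 with the block and 0.10 without it. Leaving out replicate 3 from all 4 groups, which is 4 of the 12 libraries, gave 1147 calls, 630 higher (5.1%) and 517 lower (4.19%). Of the 1674 genes, 928 were called again without replicate 3. Of the 175 named genes that were called, 16 were called without the block and 129 without replicate 3. Each named gene of which no call without the block is given below was not called without it. Leaving out 1 library gave 776 calls without control replicate 1, 747 without control replicate 2, 992 without control replicate 3, 884 without NH4Cl replicate 1, 705 without NH4Cl replicate 2 and 1398 without NH4Cl replicate 3. Leaving out replicate 1 from all 4 groups gave 273 and replicate 2 gave 218.

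Gene positions are on GRCh38 as GENCODE 29 gives them. Among the genes with the largest rises, RAB33A (ENSG00000134594, chrX:130171649-130184870, plus strand), a small GTPase of membrane traffic, measured 0.563, 0.926 and 0.805 FPKM in the controls and 2.99, 4.53 and 5.89 FPKM with NH4Cl. It was near 1 FPKM or under it in every control and above every control in each NH4Cl library (log2 fold change 1.60 ± 0.13 SE, limma adjusted p = 0.000122). GDF15 (ENSG00000130513, chr19:18374731-18389176, plus strand), a secreted stress cytokine of the TGF-β superfamily, measured 6.62, 7.53 and 11.5 FPKM in the controls and 16.8, 16.2 and 23.8 FPKM with NH4Cl. Each NH4Cl library lay above each control (log2 fold change 1.08 ± 0.06 SE, limma adjusted p = 2.09e-05). FABP3 (ENSG00000121769, chr1:31365625-31376850, minus strand), a carrier of fatty acids in the cytoplasm, measured 4.60, 4.43 and 7.43 FPKM in the controls and 9.85, 9.19 and 17.2 FPKM with NH4Cl. Its groups did not overlap, and replicate 3 was the highest of both groups (log2 fold change 0.99 ± 0.05 SE, limma adjusted p = 1.93e-05). PNPLA7, a lysophospholipase, measured 4.29, 4.11 and 6.63 FPKM in the controls and 10.1, 10.5 and 11.7 FPKM with NH4Cl, again with no overlap (log2 fold change 0.99 ± 0.11 SE, limma adjusted p = 0.00062). SELPLG, the ligand of P-selectin, was also higher, by 0.94 (limma adjusted p = 0.000434). RAB33A, and INSL3, MIR6784 and NLRC5 below, had a mean under 1 FPKM in the controls and passed the filter through the libraries where they were higher. Likewise AL121759.1 and AC093484.4 below, which fell, had a mean of 0.909 and 0.940 FPKM with NH4Cl and 2.99 and 2.58 FPKM in the controls. RAB33A was called without the block too (limma adjusted p 0.0348).

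Of the more abundant genes that rose, ACSS2 (ENSG00000131069, chr20:34872146-34927962, plus strand), which makes acetyl-CoA from acetate in the cytosol, measured 31.3, 31.7 and 53.3 FPKM in the controls and 58.6, 59.8 and 102 FPKM with NH4Cl. The groups did not overlap, and control replicate 3 came nearest to the NH4Cl values of replicates 1 and 2 (log2 fold change 0.90 ± 0.05 SE, limma adjusted p = 2.09e-05). CDA, which deaminates cytidine, measured 18.3, 15.2 and 36.6 FPKM in the controls and 32.4, 35.8 and 57.7 FPKM with NH4Cl. Control replicate 3 lay above NH4Cl replicates 1 and 2, so the groups overlapped, while each pair rose (log2 fold change 0.87 ± 0.08 SE, limma adjusted p = 0.00036). ENTPD8, an ectonucleotidase, measured 41.2, 41.04 and 79.00 FPKM in the controls and 75.9, 80.1 and 112 FPKM with NH4Cl, and its control replicate 3 fell within the NH4Cl range (log2 fold change 0.77 ± 0.09 SE, limma adjusted p = 0.000985). ALDOC, an aldolase isoform, rose by 0.75 (limma adjusted p = 0.0015), the calcium-binding protein gene S100P by 0.69 (limma adjusted p = 0.0024) and CAMK2N1, an inhibitor of calcium/calmodulin-dependent kinase II, by 0.68 (limma adjusted p = 2.09e-05). Without the block none of these 6 genes was called, at limma adjusted p between 0.221 and 0.693.

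Further genes that met the size rule are less certain as transcripts. IGFL2-AS1, an antisense RNA, measured 17.4, 13.5 and 64.7 FPKM in the controls and 49.5, 51.1 and 115 FPKM with NH4Cl, rose in each pair and overlapped between groups through control replicate 3 (log2 fold change 1.38 ± 0.18 SE, limma adjusted p = 0.00146). It overlaps a gene on the opposite strand, and whether reads were counted by strand is not stated. The same holds for AL121759.1, which lies inside KIZ on the opposite strand and stood at -1.05 (limma adjusted p = 0.00131). MIR25, whose log2 fold change was -1.23 (limma adjusted p = 0.00257), lies within MCM7, and whether its reads came from the transcript of that host gene was not tested. MIR6784 (1.45, limma adjusted p = 0.0398), MIR1208 (1.16, limma adjusted p = 0.0474), AC090049.2 (1.06, limma adjusted p = 0.0294), AC093484.4 (-0.89, limma adjusted p = 0.0149) and TRBJ2-7 (-0.82, limma adjusted p = 0.0247) were also called. Without replicate 3 their limma adjusted p were 0.179, 0.144, 0.122, 0.0988 and 0.0925, at log2 fold changes of 0.999, 1.24, 0.80, -0.87 and -0.48. AC120498.4, an unnamed transcript, measured 2.58, 3.27 and 4.43 FPKM in the controls and 9.51, 10.7 and 12.1 FPKM with NH4Cl, with no overlap (log2 fold change 1.43 ± 0.13 SE, limma adjusted p = 0.000283). INSL3, a hormone of the insulin family, rose by 0.90 (limma adjusted p = 0.0165), and its limma adjusted p without replicate 3 was 0.0814. AL121759.1 and AC120498.4 were called without the block too (limma adjusted p 0.0344 and 0.0427).

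SMN1 (ENSG00000172062, chr5:70925030-70953942, plus strand), which builds spliceosomal particles, had the largest fall among called genes, log2 fold change -1.51 ± 0.21 SE, limma adjusted p = 0.00211. It measured 13.8, 6.77 and 17.3 FPKM in the controls and 3.20, 3.34 and 4.02 FPKM with NH4Cl, and 3.73, 3.55 and 2.95 FPKM with TGF-β and 3.15, 2.79 and 3.78 FPKM with both. The 3 control libraries were the only ones of the 12 above 5 FPKM. SMN1 has a near-identical copy, SMN2, which measured 2.94, 3.00 and 3.25 FPKM in the controls and 3.14, 3.64 and 2.76 FPKM with NH4Cl, so reads may be assigned to either gene. In cells given TGF-β, the log2 fold change of SMN1 with NH4Cl was -0.06, with a limma adjusted p of 0.873, and the adjusted p of the difference between both contrasts was 0.992. SMN1 was called without the block too (limma adjusted p 0.0387).

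**Figure D2:**
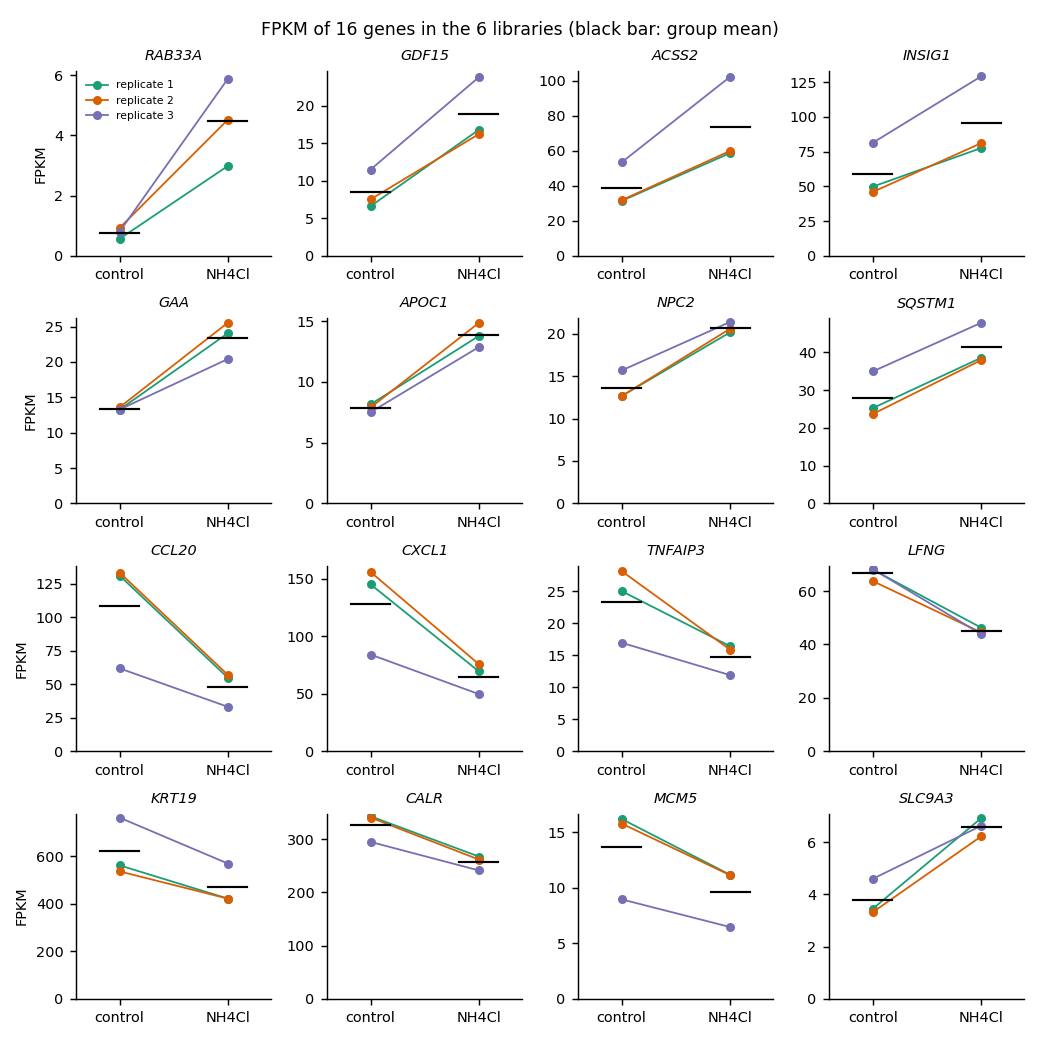
FPKM of 16 genes on the vertical axes in the 6 libraries, with a point for each library, a line for each replicate number and a black bar for the group mean. In each panel the lines run in 1 direction, while the level of replicate 3 departs from that of replicates 1 and 2 in many genes.

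Among genes of cholesterol synthesis and uptake, 21 of 26 rose and 0 fell, with a median log2 fold change of 0.28, against 7.42% higher and 6.14% lower and a median of 8.41e-05 over all genes tested. Without replicate 3, 16 rose and 0 fell, and without the block, 3 rose and 0 fell. INSIG1 (ENSG00000186480, chr7:155297776-155310235, plus strand), which holds SREBP precursors in the endoplasmic reticulum and is itself a target of SREBP, measured 49.8, 45.9 and 81.3 FPKM in the controls and 77.5, 81.03 and 129 FPKM with NH4Cl. Each pair rose, and only control replicate 3 reached the NH4Cl range (log2 fold change 0.70 ± 0.05 SE, limma adjusted p = 7.14e-05). HMGCS1 (ENSG00000112972, chr5:43289395-43313512, minus strand), which makes the precursor of mevalonate, measured 77.5, 78.6 and 89.9 FPKM in the controls and 102, 105 and 126 FPKM with NH4Cl, with no overlap (log2 fold change 0.43 ± 0.04 SE, limma adjusted p = 0.000396). MSMO1, a demethylase of sterols, measured 35.3, 34.3 and 44.2 FPKM in the controls and 44.03, 44.7 and 69.8 FPKM with NH4Cl, and control replicate 3 exceeded NH4Cl replicate 1 (log2 fold change 0.44 ± 0.09 SE, limma adjusted p = 0.0116). IDI1, an isomerase of isoprenoid synthesis, rose by 0.41 (limma adjusted p = 0.00148) and EBP, a sterol isomerase, by 0.40 (limma adjusted p = 0.000744). DHCR7, the enzyme of the last step to cholesterol, measured 134, 130.01 and 129 FPKM in the controls and 167, 172 and 157 FPKM with NH4Cl, with no overlap (log2 fold change 0.33 ± 0.04 SE, limma adjusted p = 0.00149). DHCR7 was called without the block too (limma adjusted p 0.0356).

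In fatty acid synthesis, 9 of 15 rose (60%) and 0 fell, with a median log2 fold change of 0.24. The shares over all genes tested were 7.42% higher and 6.14% lower. Without replicate 3, 7 members rose and 0 fell. Without the block no member was called by limma, and the lowest adjusted p was 0.0916 for FADS1. SCD (ENSG00000099194, chr10:100347124-100364834, plus strand), which desaturates acyl chains, measured 279, 277 and 373 FPKM in the controls and 380.3, 389.9 and 497 FPKM with NH4Cl. All NH4Cl libraries lay above all controls (log2 fold change 0.45 ± 0.04 SE, limma adjusted p = 0.000131). FASN, the fatty acid synthase, measured 169.7, 186 and 179 FPKM in the controls and 215, 232 and 209 FPKM with NH4Cl, also with no overlap (log2 fold change 0.29 ± 0.06 SE, limma adjusted p = 0.0121). ACLY, which makes cytosolic acetyl-CoA from citrate, rose by 0.30 (limma adjusted p = 0.00226), and LPIN1, a phosphatidate phosphatase, by 0.34 (limma adjusted p = 0.00134). Of targets of the LXR sterol receptors, 2 of 7 rose and 0 fell, with a median log2 fold change of 0.16, and without replicate 3, 2 rose and 0 fell. The members that rose were APOE and APOC1, neighbouring genes of lipoproteins on chromosome 19. APOE (ENSG00000130203, chr19:44905754-44909393, plus strand) measured 8.81, 8.29 and 6.99 FPKM in the controls and 12.8, 14.2 and 12.2 FPKM with NH4Cl, with no overlap (log2 fold change 0.64 ± 0.05 SE, limma adjusted p = 0.000181), and APOC1 (ENSG00000130208, chr19:44914247-44919349, plus strand) rose by 0.74 (limma adjusted p = 0.00119). APOE and APOC1 were called without the block too (limma adjusted p 0.0166 and 0.0151).

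Among lysosomal hydrolases, 11 of 46 rose (23.9%) and 3 fell (6.52%), with a median log2 fold change of 0.08. Over all genes tested, 7.42% were higher and 6.14% lower, so the share of hydrolases that fell is near that of all genes. GAA (ENSG00000171298, chr17:80101556-80119879, plus strand), which breaks down glycogen in lysosomes, measured 13.3, 13.6 and 13.3 FPKM in the controls and 24.1, 25.5 and 20.4 FPKM with NH4Cl. All NH4Cl libraries lay above all controls, and replicate 3 rose least (log2 fold change 0.75 ± 0.08 SE, limma adjusted p = 0.000648). TPP1, a peptidase, rose by 0.36 (limma adjusted p = 0.00184) and HYAL1, a hyaluronidase, by 0.40 (limma adjusted p = 0.00404), while the acid phosphatase ACP2 fell by 0.42 (limma adjusted p = 0.00758). The abundant members CTSZ and PSAP, a cathepsin and the saposin precursor, were at -0.10 (limma adjusted p = 0.0782) and 0.14 (limma adjusted p = 0.0572), neither of which passed. The promoter of GAA is shown because its window holds the core of the motif bound by TFEB, TCACGTGA, which reads the same on both strands. Capitals mark that motif in 68 bases at chr17:80101474-80101541 (plus strand), GRCh38.p14, which lie before the RefSeq start and do not reach it. Over all 27305 promoters of 300 bases in that table, 1.04% hold the motif, as do 178 of the 8805 promoters of genes tested (2.02%). It is held by 11 of the 649 of genes called higher (1.69%) and 12 of the 574 of genes called lower (2.09%). Of the 31 found for lysosomal hydrolases, 5 hold it (16.1%). The other 26 hydrolase promoters do not hold it. A match is a description and does not show binding. GAA was called without the block too (limma adjusted p 0.0131).
GAA: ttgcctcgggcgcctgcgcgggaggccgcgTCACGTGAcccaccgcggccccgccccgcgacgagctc

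Of lysosome membrane proteins, 6 of 22 rose (27.3%) and 1 fell (4.55%), with a median log2 fold change of 0.06. Over all genes tested, 7.42% were higher and 6.14% lower, so the share of membrane proteins that fell is near that of all genes. NPC2, which hands cholesterol to the membrane, is counted in this list although the protein is soluble. It measured 12.7, 12.6 and 15.7 FPKM in the controls and 20.1, 20.6 and 21.4 FPKM with NH4Cl, with no overlap (log2 fold change 0.57 ± 0.06 SE, limma adjusted p = 0.000387). The NPC2 gene overlaps a gene on the opposite strand. NPC1, which exports cholesterol, rose by 0.26 (limma adjusted p = 0.00768), SLC17A5, a sialic acid exporter, by 0.29 (limma adjusted p = 0.0126) and the tetraspanin gene CD63 by 0.15 (limma adjusted p = 0.0342). TPCN2, a lysosomal cation channel, fell by 0.38 (limma adjusted p = 0.00366). In the V-ATPase, the pump that acidifies lysosomes, 4 of 21 rose (19%) and 0 fell, with a median log2 fold change of 0.08. These were ATP6V1A at 0.24 (limma adjusted p = 0.00514), ATP6V1F at 0.21 (limma adjusted p = 0.0429), ATP6V0A1 at 0.19 (limma adjusted p = 0.0326) and ATP6AP1 at 0.19 (limma adjusted p = 0.0201). NPC2 and TPCN2 were called without the block too (limma adjusted p 0.0432 and 0.0402). Without replicate 3, CD63 and ATP6V1F were no longer called (limma adjusted p 0.0899 and 0.147).

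Among the TFEB family and the Rag and folliculin proteins, which link lysosomes to mTORC1, 3 of 14 rose and 0 fell, with a median log2 fold change of 0.06. These were RRAGD at 0.30 (limma adjusted p = 0.00622), FLCN at 0.27 (limma adjusted p = 0.0172) and FNIP1 at 0.19 (limma adjusted p = 0.0192). In the autophagy machinery, 3 of 41 rose and 1 fell, with a median log2 fold change of 0.02, which is 7.32% higher and 2.44% lower, against 7.42% and 6.14% over all genes tested. SQSTM1 (ENSG00000161011, chr5:179806398-179838078, plus strand), a cargo receptor of autophagosomes, measured 25.2, 23.7 and 34.97 FPKM in the controls and 38.6, 37.96 and 47.8 FPKM with NH4Cl. Control replicate 3 was below all NH4Cl values, so the groups did not overlap (log2 fold change 0.56 ± 0.06 SE, limma adjusted p = 0.000468). MAP1LC3B, a marker of autophagosomes, rose by 0.21 (limma adjusted p = 0.00933) and WIPI1, a phosphoinositide effector, by 0.32 (limma adjusted p = 0.00512). ATG13, of the initiating kinase complex, fell by 0.14 (limma adjusted p = 0.025). Without replicate 3, 9 rose and 2 fell among hydrolases, 3 rose and 1 fell among membrane proteins, 3 rose and 0 fell in the V-ATPase, 1 rose and 0 fell in the TFEB and Rag list and 3 rose and 0 fell in the autophagy list. Without replicate 3, FLCN, FNIP1, MAP1LC3B and ATG13 were no longer called (limma adjusted p 0.0645, 0.0643, 0.0548 and 0.0566).

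In the integrated stress response, which the kinases of eIF2α start and ATF4 carries out, 5 of 30 rose and 0 fell, with a median log2 fold change of 0.08. TRIB3, a pseudokinase induced by ATF4, measured 84.4, 76.7 and 172 FPKM in the controls and 128, 130.01 and 224 FPKM with NH4Cl. Each pair rose and replicate 3 was high in both groups (log2 fold change 0.58 ± 0.08 SE, limma adjusted p = 0.00229). STC2, a secreted glycoprotein, rose by 0.32 (limma adjusted p = 0.00197) and PSPH, the last enzyme of serine synthesis, by 0.22 (limma adjusted p = 0.0191). ATF4 itself measured 175, 170.2 and 225 FPKM in the controls and 188, 184 and 218 FPKM with NH4Cl and did not pass (log2 fold change 0.06 ± 0.05 SE, limma adjusted p = 0.493). Of amino acid transporters, 3 of 22 rose and 0 fell, with a median log2 fold change of 0.08, with SLC38A2 at 0.20 (limma adjusted p = 0.00868), SLC6A6 at 0.22 (limma adjusted p = 0.0229) and SLC38A1 at 0.14 (limma adjusted p = 0.0264). Of cytosolic aminoacyl-tRNA synthetases, 1 of 20 rose and 1 fell, with a median log2 fold change of 0.06, the tyrosine enzyme YARS at 0.13 (limma adjusted p = 0.0328) and the glutamine enzyme QARS at -0.19 (limma adjusted p = 0.0046). With replicate 3 left out, 6 rose and 0 fell in the integrated stress response, 3 rose and 0 fell among the transporters and 4 rose and 1 fell among the synthetases. Shares called were 16.7% higher in the integrated stress response, 13.6% higher among transporters, and 5% higher and 5% lower among synthetases. Over all genes tested they were 7.42% and 6.14%, and 5.1% and 4.19% without replicate 3, and the synthetases, with 1 gene in each direction, are near that share. Without replicate 3, SLC38A1 was no longer called (limma adjusted p 0.0987).

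Among chaperones of the endoplasmic reticulum and genes of the unfolded protein response, 0 of 27 rose and 7 fell, with a median log2 fold change of -0.06. CALR (ENSG00000179218, chr19:12938578-12944489, plus strand), a calcium-binding chaperone, measured 343, 341 and 295 FPKM in the controls and 267, 262 and 241 FPKM with NH4Cl. Its groups did not overlap (log2 fold change -0.34 ± 0.04 SE, limma adjusted p = 0.000573). HSPA5, the chaperone BiP, measured 238, 227 and 352 FPKM in the controls and 212, 205 and 297 FPKM with NH4Cl, and the replicate 3 values were the highest of both groups (log2 fold change -0.19 ± 0.03 SE, limma adjusted p = 0.00516). PDIA4, a disulphide isomerase, fell by 0.18 (limma adjusted p = 0.00985) and SDF2L1, a cofactor of chaperones, by 0.30 (limma adjusted p = 0.0197). Among cytosolic heat shock genes, 2 of 20 rose and 1 fell, with a median log2 fold change of 0.04, and HSPA8, the constitutive heat shock protein, fell by 0.14 (limma adjusted p = 0.0223). The heat shock shares, 10% and 5%, are near the 7.42% and 6.14% over all genes tested. Leaving out replicate 3, 0 rose and 4 fell in the endoplasmic reticulum list and 1 rose and 0 fell among heat shock genes. Without replicate 3, SDF2L1 and HSPA8 were no longer called (limma adjusted p 0.108 and 0.0925).

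Of targets of NRF2, the oxidative stress factor, 6 of 24 rose (25%) and 1 fell (4.17%), with a median log2 fold change of 0.10. In iron handling, 3 of 16 rose (18.8%) and 0 fell, with a median log2 fold change of 0.05. Over all genes tested, 7.42% were higher and 6.14% lower, so the share of NRF2 targets that fell is near that of all genes. FTH1 and FTL belong to both lists. FTH1 (ENSG00000167996, chr11:61959718-61967660, minus strand), the heavy chain of ferritin, measured 297, 277 and 453 FPKM in the controls and 381, 399 and 639 FPKM with NH4Cl. Control replicate 3 lay above NH4Cl replicates 1 and 2, so the groups overlapped, and each pair rose (log2 fold change 0.46 ± 0.05 SE, limma adjusted p = 0.00103). FTL, the light chain, measured 1485, 1409.6 and 1633 FPKM in the controls and 1692, 1752 and 2002 FPKM with NH4Cl, and its groups did not overlap (log2 fold change 0.27 ± 0.05 SE, limma adjusted p = 0.00575). TFRC, the transferrin receptor, measured 71.6, 71.9 and 86.4 FPKM in the controls and 90.3, 96.1 and 98.2 FPKM with NH4Cl, with no overlap (log2 fold change 0.31 ± 0.06 SE, limma adjusted p = 0.00676). NQO1, a quinone reductase, rose by 0.31 (limma adjusted p = 0.00575) and AKR1C3, an aldo-keto reductase, by 0.31 (limma adjusted p = 0.0252). Of NRF2 targets 4 rose and 1 fell without replicate 3, and in iron handling 2 rose and 0 fell. Without replicate 3, FTL was no longer called (limma adjusted p 0.0645).

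Among chemokines and cytokines, 2 of 16 rose (12.5%) and 11 fell (68.8%), with a median log2 fold change of -0.43. The shares over all genes tested were 7.42% higher and 6.14% lower. CCL20 (ENSG00000115009, chr2:227805739-227817564, plus strand), which attracts cells that bear CCR6, measured 131, 133 and 61.9 FPKM in the controls and 54.8, 56.9 and 33.1 FPKM with NH4Cl. Every NH4Cl library lay below every control, and replicate 3 was the lowest of both groups (log2 fold change -1.11 ± 0.09 SE, limma adjusted p = 0.000131). CXCL1 (ENSG00000163739, chr4:73869393-73871242, plus strand), which attracts neutrophils, measured 145, 156 and 83.9 FPKM in the controls and 69.2, 75.5 and 49.5 FPKM with NH4Cl, with no overlap (log2 fold change -0.95 ± 0.06 SE, limma adjusted p = 4.49e-05). CXCL6, of the same family, measured 39.8, 41.4 and 24.1 FPKM in the controls and 19.5, 17.8 and 16.2 FPKM with NH4Cl, also with no overlap (log2 fold change -0.91 ± 0.13 SE, limma adjusted p = 0.00238). CXCL3 fell by 0.83 (limma adjusted p = 0.000121), and since CXCL1, CXCL2 and CXCL3 are near copies, reads may be shared between them. CXCL8, which attracts neutrophils, measured 60.6, 60.3 and 44.96 FPKM in the controls and 31.8, 33.00 and 42.99 FPKM with NH4Cl. It fell in replicates 1 and 2 and by little in replicate 3 (log2 fold change -0.61 ± 0.17 SE, limma adjusted p = 0.0379), and without replicate 3 its limma adjusted p was 0.00152. LTB, a membrane cytokine of the tumour necrosis factor family outside the list, measured 259, 249 and 116 FPKM in the controls and 145, 147 and 76.2 FPKM with NH4Cl. NH4Cl replicates 1 and 2 lay above control replicate 3, so the groups overlapped (log2 fold change -0.73 ± 0.05 SE, limma adjusted p = 4.49e-05). IL17C, an epithelial cytokine that is also outside the list, fell by 0.85 (limma adjusted p = 0.000387).

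Promoters of 5 chemokines are shown because these genes fell together and their windows hold the NF-κB motif searched, GGNNTTTCC on either strand, which 6.26% of the 27305 promoters hold and 6.72% of the 8805 of genes tested. It is held by 59 of the 574 promoters of genes called lower (10.3%) and 34 of the 649 of genes called higher (5.24%). Of the cholesterol list, which rose, 4 of 19 promoters hold it (21.1%), and of DNA replication 5 of 34 (14.7%). The SRE motif searched, TCACNCCAC, is in 1 of the 19 cholesterol promoters (5.26%) and in 1.07% of those of genes tested. Of the 16 members of the chemokine and cytokine list 12 had a promoter in the table, and 7 of them (58.3%) hold the NF-κB motif and 5 do not. The 5 shown are those of the 7 with the largest falls, and CXCL2 and IL32 are the other ones. Each line gives 69 bases that lie before the RefSeq start, GRCh38.p14, and do not reach it. Capitals mark the motif, and each line reads 5′ to 3′ on the strand of the gene. The windows lie at chr2:227813733-227813801 (plus strand) for CCL20, chr4:73869285-73869353 (plus strand) for CXCL1, chr4:73836559-73836627 (plus strand) for CXCL6, chr4:74038729-74038797 (minus strand) for CXCL3 and chr4:73740448-73740516 (plus strand) for CXCL8. In CCL20 the capitals hold the motif on the opposite strand. The starts are those of RefSeq, and as GENCODE draws these genes, the windows of CCL20, CXCL6 and CXCL3 lie inside the gene, that of CXCL8 runs past its start and that of CXCL1 lies before it.
CCL20: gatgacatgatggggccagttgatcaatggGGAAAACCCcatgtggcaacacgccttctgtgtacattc
CXCL1: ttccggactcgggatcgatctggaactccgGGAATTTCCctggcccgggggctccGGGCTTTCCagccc
CXCL6: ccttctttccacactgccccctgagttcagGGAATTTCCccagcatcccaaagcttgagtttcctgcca
CXCL3: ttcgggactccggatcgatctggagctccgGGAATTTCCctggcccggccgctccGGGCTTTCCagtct
CXCL8: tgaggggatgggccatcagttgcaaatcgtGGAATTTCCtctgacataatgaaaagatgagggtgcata

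Among NF-κB subunits and feedback targets, 1 of 21 rose (4.76%) and 9 fell (42.9%), with a median log2 fold change of -0.13. The shares over all genes tested were 7.42% higher and 6.14% lower. TNFAIP3 (ENSG00000118503, chr6:137867188-137883312, plus strand), an inhibitor of the pathway, measured 25.03, 28.2 and 16.95 FPKM in the controls and 16.4, 15.9 and 11.9 FPKM with NH4Cl. NH4Cl replicates 1 to 3 lay below all controls (log2 fold change -0.62 ± 0.06 SE, limma adjusted p = 0.000348). BIRC3, an inhibitor of apoptosis, measured 20.8, 21.8 and 15.3 FPKM in the controls and 13.2, 11.9 and 12.4 FPKM with NH4Cl, with no overlap (log2 fold change -0.57 ± 0.10 SE, limma adjusted p = 0.00726). TNFAIP2 fell by 0.46 (limma adjusted p = 0.000122). ICAM1, an adhesion molecule, rose by 0.36 (limma adjusted p = 0.00252), and the subunit NFKB2 was at -0.04 (limma adjusted p = 0.532) and did not pass. Without replicate 3, 1 rose and 9 fell of the chemokines and cytokines, and 1 rose and 10 fell of the NF-κB list. Without the block no member of either list was called by limma, and the lowest adjusted p was 0.118 for TNFSF10 among chemokines and cytokines and 0.169 for BIRC3 in the NF-κB list. A RefSeq promoter was found for 19 of the 21 NF-κB members (90.5%), and 10 of them (52.6%) hold GGNNTTTCC.

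Among enzymes of ammonia, glutamine and urea, 10 of 30 rose (33.3%) and 3 fell (10%), with a median log2 fold change of 0.00. The shares over all genes tested were 7.42% higher and 6.14% lower. ASL (ENSG00000126522, chr7:66075798-66093558, plus strand), which splits argininosuccinate in the urea cycle, measured 6.27, 6.65 and 7.14 FPKM in the controls and 4.74, 5.08 and 4.74 FPKM with NH4Cl. All NH4Cl libraries lay below all controls (log2 fold change -0.39 ± 0.05 SE, limma adjusted p = 0.00119). GNPDA1, which releases ammonia from glucosamine phosphate, measured 22.8, 21.9 and 19.4 FPKM in the controls and 28.5, 30.1 and 24.7 FPKM with NH4Cl, with no overlap (log2 fold change 0.36 ± 0.04 SE, limma adjusted p = 0.000985). ALDH4A1, of proline breakdown, rose by 0.36 (limma adjusted p = 0.00211) and the arginase ARG2 by 0.36 (limma adjusted p = 0.00139). Of acid-base transporters and carbonic anhydrases, 4 of 18 rose (22.2%) and 2 fell (11.1%), with a median log2 fold change of -0.02. SLC9A3, an exchanger of sodium for protons, measured 3.45, 3.32 and 4.60 FPKM in the controls and 6.92, 6.22 and 6.63 FPKM with NH4Cl, with no overlap (log2 fold change 0.67 ± 0.10 SE, limma adjusted p = 0.00213). CA11, a carbonic anhydrase-related protein, measured 3.42, 3.98 and 3.61 FPKM in the controls and 5.59, 5.52 and 5.77 FPKM with NH4Cl, with no overlap (log2 fold change 0.51 ± 0.08 SE, limma adjusted p = 0.00456), while SLC12A2, a chloride cotransporter, fell by 0.42 (limma adjusted p = 0.00125). Of the nitrogen enzymes 8 rose and 3 fell without replicate 3, and of the acid-base list 3 rose and 1 fell. ASL and CA11 were called without the block too (limma adjusted p 0.0374 and 0.0437). Without replicate 3, CA11 was no longer called (limma adjusted p 0.0526).

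In DNA replication, 0 of 39 rose and 13 fell (33.3%), with a median log2 fold change of -0.17. Without replicate 3, 0 rose and 15 fell, and without the block, 0 rose and 0 fell. MCM5 (ENSG00000100297, chr22:35400063-35425430, plus strand), of the replicative helicase, measured 16.2, 15.8 and 8.95 FPKM in the controls and 11.2, 11.1 and 6.46 FPKM with NH4Cl. Each pair fell, and the replicate 3 values were lowest in both groups, with control replicate 3 under NH4Cl replicates 1 and 2 (log2 fold change -0.46 ± 0.04 SE, limma adjusted p = 0.000365). LIG1, a DNA ligase, fell by 0.34 (limma adjusted p = 0.00207), TK1, a thymidine kinase, by 0.30 (limma adjusted p = 0.00439) and UNG, which removes uracil, by 0.29 (limma adjusted p = 0.0125). PCNA, the sliding clamp, measured 212, 211 and 124 FPKM in the controls and 188, 189 and 118 FPKM with NH4Cl and did not pass (log2 fold change -0.13 ± 0.06 SE, limma adjusted p = 0.158). In mitosis, 1 of 33 rose and 1 fell, with a median log2 fold change of 0.01, the fall being CDC20, an activator of the anaphase complex (-0.22, limma adjusted p = 0.00531), and the rise the kinase gene AURKA (0.13, limma adjusted p = 0.042). In ribosome biogenesis, 0 of 29 rose and 3 fell, with a median log2 fold change of -0.08, with NOP56 at -0.25 (limma adjusted p = 0.00199) and PES1 at -0.26 (limma adjusted p = 0.00875). Of purine and pyrimidine synthesis, 2 of 21 rose and 4 fell, with a median log2 fold change of -0.08, and ADSSL1, which makes adenylosuccinate, rose by 0.45 (limma adjusted p = 0.000541). Without replicate 3 these counts were as follows: in mitosis 0 rose and 2 fell, in ribosome biogenesis 0 rose and 2 fell and in purine and pyrimidine synthesis 1 rose and 2 fell. Against 7.42% higher and 6.14% lower over all genes tested, mitosis had 3.03% in each direction, which is 1 gene each, ribosome biogenesis 10.3% lower, and purine and pyrimidine synthesis 9.52% higher and 19.00% lower. ADSSL1 was called without the block too (limma adjusted p 0.0328). Without replicate 3, AURKA was no longer called (limma adjusted p 0.124).

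Of epithelial junctions and keratins, 2 of 23 rose (8.7%) and 6 fell (26.1%), with a median log2 fold change of -0.09. Over all genes tested, 7.42% were higher and 6.14% lower, so the share of this list that rose is near that of all genes. KRT17 (ENSG00000128422, chr17:41619441-41624842, minus strand), a keratin of stressed epithelium and outside the list, measured 13.02, 11.3 and 27.1 FPKM in the controls and 5.65, 5.77 and 13.4 FPKM with NH4Cl. Each pair fell, and replicate 3 was the highest of both groups (log2 fold change -0.97 ± 0.06 SE, limma adjusted p = 4.49e-05). KRT19 measured 563, 537 and 764 FPKM in the controls and 422, 422 and 570.1 FPKM with NH4Cl, and its NH4Cl replicate 3 overlapped the controls (log2 fold change -0.39 ± 0.03 SE, limma adjusted p = 0.000131). KRT6A, also outside the list, fell by 0.82 (limma adjusted p = 0.0342), and by 0.53 without replicate 3 (limma adjusted p = 0.0132). CLDN1, of tight junctions, measured 70.2, 69.6 and 55.5 FPKM in the controls and 44.95, 45.2 and 42.05 FPKM with NH4Cl, with no overlap (log2 fold change -0.55 ± 0.06 SE, limma adjusted p = 0.000985). KRT5, which was chosen after its values were seen, measured 450.2, 439 and 481 FPKM in the controls and 310.2, 315 and 324 FPKM with NH4Cl, with no overlap (log2 fold change -0.53 ± 0.04 SE, limma adjusted p = 0.000122). KRT8 and KRT18 were at -0.11 (limma adjusted p = 0.127) and -0.11 (limma adjusted p = 0.189) and did not pass. Of mesenchymal genes, 0 of 11 rose and 2 fell (18.2%), with a median log2 fold change of -0.07. The falls were MMP7, a metalloproteinase (-0.64, limma adjusted p = 0.00132), and TGFBI (-0.38, limma adjusted p = 0.0046). Of junctions and keratins 0 rose and 4 fell without replicate 3, and of mesenchymal genes 0 rose and 2 fell. KRT5 was called without the block too (limma adjusted p 0.0328).

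Among targets of Wnt signalling, 4 of 20 rose (20%) and 8 fell (40%), with a median log2 fold change of -0.11. The shares over all genes tested were 7.42% higher and 6.14% lower. Without the block, 0 Wnt targets rose and 0 fell. NOTUM (ENSG00000185269, chr17:81952507-81961840, minus strand), an extracellular inhibitor of Wnt, measured 276, 277 and 219 FPKM in the controls and 202, 199 and 168 FPKM with NH4Cl. All NH4Cl libraries lay below all controls (log2 fold change -0.44 ± 0.03 SE, limma adjusted p = 0.000112). ASCL2, a stem cell transcription factor of the gut, fell by 0.36 (limma adjusted p = 0.000414) and the ephrin receptor gene EPHB2 by 0.24 (limma adjusted p = 0.0125), while MYC rose by 0.23 (limma adjusted p = 0.00521). In the Notch pathway, 3 of 17 rose (17.6%) and 1 fell (5.88%), with a median log2 fold change of 0.00. Its share that fell is near that of all genes. The rises were NOTCH3 at 0.31 (limma adjusted p = 0.0316), DLL3 at 0.27 (limma adjusted p = 0.028) and NRARP at 0.25 (limma adjusted p = 0.0196). Without replicate 3, NOTCH3 was no longer called (log2 fold change 0.36, limma adjusted p 0.0906). LFNG (ENSG00000106003, chr7:2512529-2529177, plus strand), which adds sugars to Notch receptors, measured 68.1, 63.8 and 68.2 FPKM in the controls and 46.3, 44.5 and 43.9 FPKM with NH4Cl. The groups did not overlap (log2 fold change -0.56 ± 0.04 SE, limma adjusted p = 0.000109). RBM3, an RNA-binding protein induced by cold, measured 56.4, 53.6 and 40.7 FPKM in the controls and 35.9, 35.96 and 29.6 FPKM with NH4Cl, with no overlap (log2 fold change -0.55 ± 0.05 SE, limma adjusted p = 0.000181). Of Wnt targets 2 rose and 7 fell without replicate 3, and of the Notch pathway 2 rose and 1 fell. LFNG was called without the block too (limma adjusted p 0.0131).

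For the pathway the study asks about, 1 of 22 rose and 2 fell, with a median log2 fold change of -0.04 among ligands, receptors, SMADs and adaptors. TGFB1, a ligand, measured 43.04, 39.3 and 69.7 FPKM in the controls and 52.4, 57.1 and 79.1 FPKM with NH4Cl. Each pair rose, and control replicate 3 exceeded NH4Cl replicates 1 and 2 (log2 fold change 0.33 ± 0.06 SE, limma adjusted p = 0.00936). TGFBR2, the type II receptor, fell by 0.25 (limma adjusted p = 0.00471), and BMP4, a related ligand, by 0.23 (limma adjusted p = 0.00345). SMAD3 (-0.05, limma adjusted p = 0.505), its adaptor SPTBN1 (0.11, limma adjusted p = 0.264) and CEACAM1 (0.19, limma adjusted p = 0.0594) did not pass. In cells given TGF-β, CEACAM1 rose with NH4Cl by 0.27 (limma adjusted p = 0.0115), while SMAD3 and SPTBN1 did not pass (limma adjusted p 0.373 and 0.993). These values are of RNA, and the study's results on SPTBN1 cleavage and SMAD3 phosphorylation are on protein, which RNA does not show. Of early targets of TGF-β, 4 of 21 rose and 5 fell, with a median log2 fold change of -0.07, with BHLHE40, a repressor of transcription, at 0.56 (limma adjusted p = 0.00036), CDKN2B, a cell cycle inhibitor, at 0.38 (limma adjusted p = 0.000395) and ID1, an inhibitor of differentiation, at -0.31 (limma adjusted p = 0.0146). Of early targets 4 rose and 4 fell without replicate 3, and of the ligands, receptors, SMADs and adaptors 2 rose and 2 fell. The shares of the ligands, receptors, SMADs and adaptors, 4.55% higher and 9.09% lower, are near the 7.42% and 6.14% over all genes tested. Without the block none of the genes in this paragraph was called for NH4Cl against control, at limma adjusted p between 0.32 and 0.975.

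Some of the 47 genes called with and without the block lie outside the rule for named genes and were chosen after their values were seen. ACSL1 (ENSG00000151726, chr4:184755595-184826818, minus strand), which activates long-chain fatty acids, measured 22.6, 22.5 and 24.02 FPKM in the controls and 35.5, 34.9 and 36.2 FPKM with NH4Cl. The controls stayed within a narrow range below all NH4Cl libraries (log2 fold change 0.61 ± 0.05 SE, limma adjusted p = 0.000121). NLRC5, an activator of MHC class I genes, measured 0.973, 1.02 and 0.785 FPKM in the controls and 2.01, 2.12 and 1.97 FPKM with NH4Cl, near the lower limit of the genes tested (log2 fold change 0.66 ± 0.07 SE, limma adjusted p = 0.000633). COL6A1 and COL6A2, chains of collagen VI, rose by 0.61 (limma adjusted p = 0.000556) and 0.41 (limma adjusted p = 0.00189). SOX2, a transcription factor of stem cells, measured 12.9, 12.4 and 13.3 FPKM in the controls and 8.92, 8.48 and 8.67 FPKM with NH4Cl. All NH4Cl libraries lay below all controls (log2 fold change -0.52 ± 0.08 SE, limma adjusted p = 0.00257). CREB3, a transcription factor held in the membrane of the endoplasmic reticulum, fell by 0.37 (limma adjusted p = 0.00211), TUBB6, a tubulin isotype, by 0.47 (limma adjusted p = 0.000387) and KIZ, a centrosomal protein, by 0.51 (limma adjusted p = 0.00154). Enzymes of isoprenoid and sterol synthesis among the 47 were GGPS1 (0.34, limma adjusted p = 0.0015), ACAT2 (0.37, limma adjusted p = 0.00129) and DHCR7 (0.33, limma adjusted p = 0.00149). ACSL1, CREB3, TUBB6, KIZ, GGPS1, ACAT2 and DHCR7 overlap a gene on the opposite strand.

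**Figure D3:**
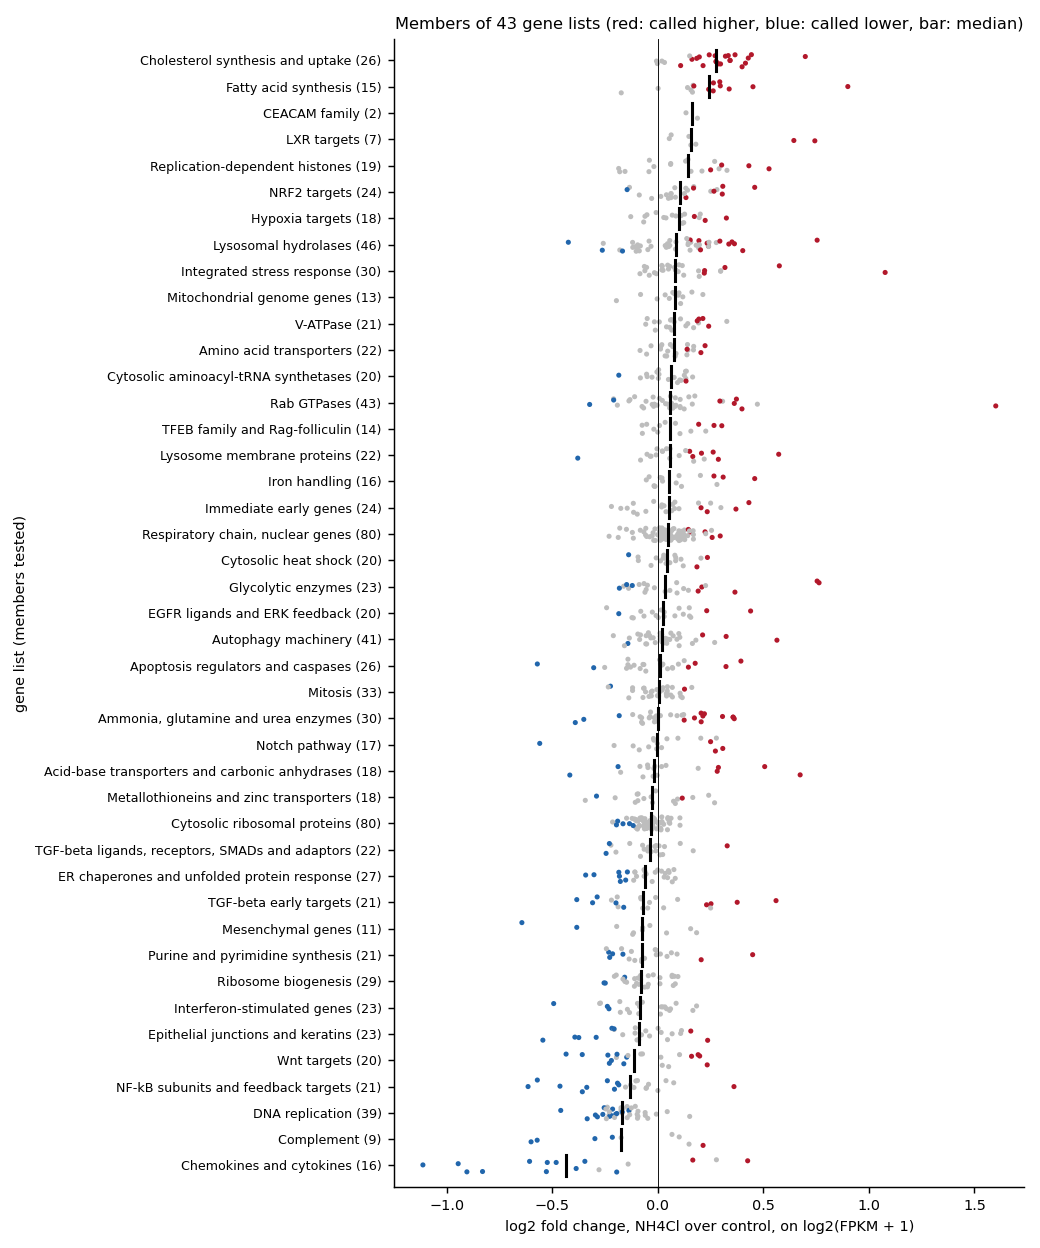
Gene lists are ordered from top to bottom by median, and the horizontal axis gives the log2 fold change of NH4Cl over control, with a point for every tested member and a black bar for the median of the list. Cholesterol synthesis and chemokines lie farthest from 0 on either side, with medians of 0.28 and -0.43 over the members tested.

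NH4Cl was also given for 23 h to cells that then had TGF-β for 1 h, in 6 libraries that share none with the comparison above but were fitted together with it. There limma called 2322 of 12341 genes (18.8%), 1275 higher and 1047 lower. Of the 1674 genes called without TGF-β, 1223 were called in both, which is 73.1% of the first list and 52.7% of the second, and all 1223 moved in the same direction. Direction was shared by 1651 of the 1674 (98.6%), against 77.6% over all genes tested, and 23 ran opposite. Across the 12341 genes, which are not independent replicates, the log2 fold changes had r 0.676 and rho 0.704. The slope through the origin over the genes called without TGF-β was 0.89. Choosing genes by their calls without TGF-β can lower that slope, so it does not compare the sizes of both effects. The limma test of the difference between both effects called 0 genes, and 537 had an unadjusted p under 0.05. Of the cholesterol list 21 rose and 0 fell there, of the chemokine list 3 rose and 12 fell and of the DNA replication list 0 rose and 17 fell. GDF15 stood at 1.07, CCL20 at -1.23, INSIG1 at 0.83 and GAA at 0.77.

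**Figure D4:**
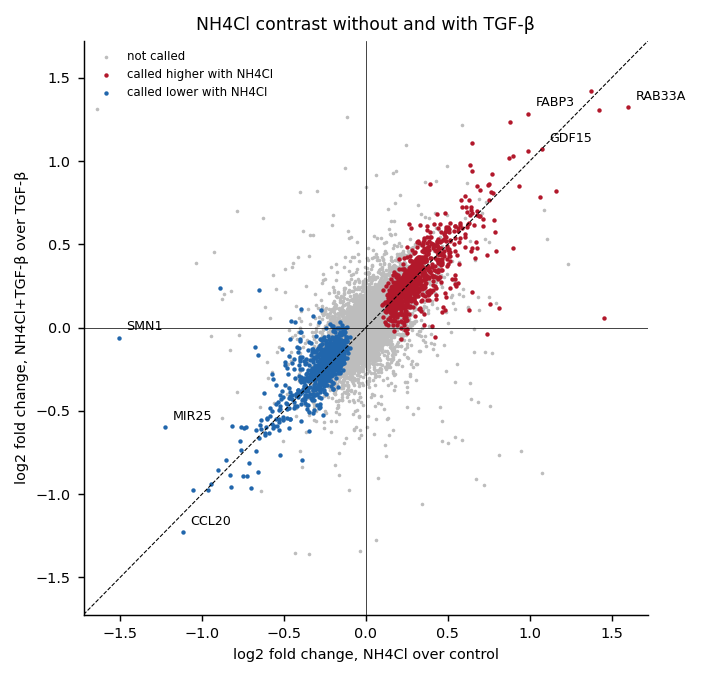
Log2 fold change with NH4Cl without TGF-β on the horizontal axis and with TGF-β on the vertical axis, for each of the 12341 genes tested, with red for genes called higher and blue for genes called lower without TGF-β. The dashed line marks equal values. The slope through the origin over genes called without TGF-β, a choice that can lower it, was 0.89.

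**Figure D5:**
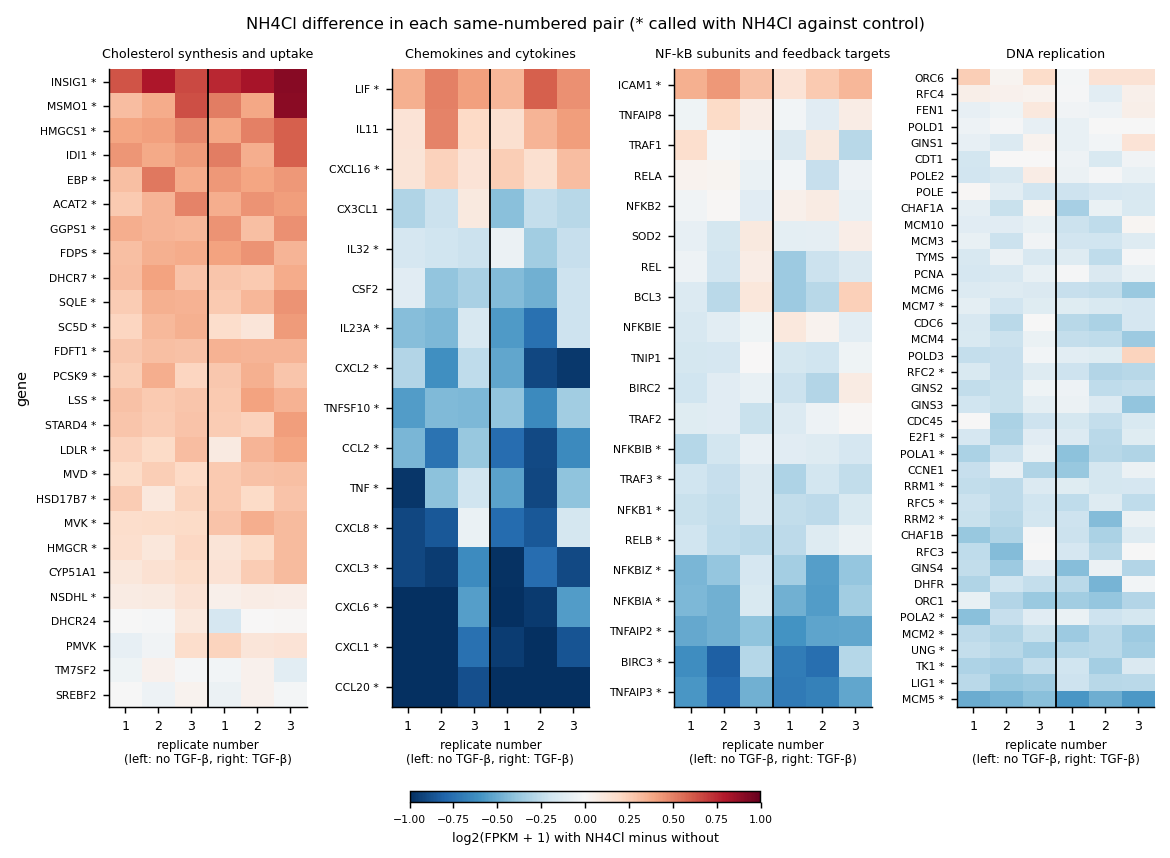
Difference in log2(FPKM + 1) with NH4Cl in each replicate pair of 4 gene lists, red for higher and blue for lower, with cells without TGF-β on the left and cells with TGF-β on the right. Stars mark genes called in the comparison without TGF-β, and replicate 3 differs from the others in chemokines such as CXCL8.

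Features of called genes are given beside those of all genes tested, and several were near them. Protein-coding genes were 86.8% of those tested, 88.4% of genes called higher and 92.2% of genes called lower. The median mean FPKM was 6.63 over genes tested, 10.7 among higher and 10.9 among lower genes, and the median exon length 4504, 4370 and 3980 bases. Abundant genes can be easier to call, and the part of this in the higher FPKM of called genes was not tested. Across genes, log2 fold change had a rho of -0.009 with exon length and -0.002 with mean FPKM. A gene on the opposite strand overlapped 41.6% of called genes and 42.7% of those tested. At FPKM between 1 and 1.1 the median was 53 reads per library. Of the 1674 called genes, 244 belonged to 1 or more of the 43 lists, and 1430 to none. RefSeq promoters matched 8805 of the 12341 genes tested (71.3%), so the shares of motifs were not tested for a difference between higher and lower genes.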

How the data were processed

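The authors deposited FPKM per gene for 12 libraries. Their notes name Trimmomatic 0.36, STAR 2.5.2b and featureCounts of Subread 1.5.2 on GRCh38, while the paper names HTSeq. Genes were annotated with GENCODE 29. Values were fitted as log2(FPKM + 1) in limma 3.58.1 (R 4.3.3) with 4 group means, a block for replicate number, an intensity trend and Benjamini-Hochberg adjustment over 12341 genes. Tables and figures used Python 3.11.15, numpy 2.4.6, pandas 2.3.3 and matplotlib 3.10.9. Reads were recovered from FPKM and exon length. They gave the depth, the mitochondrial share, the chi-square and the median reads of genes near 1 FPKM, and were not used in the limma tests.

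Pairing was checked by correlating, for each gene, departures from the group mean. Between control and NH4Cl these were 0.407, 0.446 and 0.732 for equal numbers, and 0.399 and 0.452 between replicates 1 and 2. Numbers 1 and 2 are thus not told apart by the values.

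Named genes were the 12 largest rises and 12 largest falls among called genes with 3 of 3 pairs in 1 direction, the 8 largest of each among those with a mean of at least 20 FPKM, in each list the 4 called members with the largest change and the 2 most abundant members, and genes of the study, 227 in all, of which 175 were called. The 43 lists hold 1253 different genes. Some genes and lists are not reported here. Members and lists were chosen with earlier results of these data known. A self-test with planted changes was run. Promoters came from RefSeq for GRCh38.p14. The setting with replicate 3 as a batch and that with replicates 1 and 2 exchanged were chosen after seeing the data.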

Additional observations from a re-analysis of the deposited data

How the results depend on the processing

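None of the 175 called named genes changed direction under the 20 alternatives for NH4Cl against control. Every called gene moved in the same direction in 3 of 3 pairs, so a change of direction was unlikely beforehand. Of 11 lists with a median of at least 0.1 in size, 1 changed sign, complement at a mean FPKM of at least 5. The median of chemokines and cytokines, -0.43, lay between -0.53 at a mean FPKM of at least 5 and -0.07 with no filter on FPKM, which adds members under a mean of 1 FPKM. Medians of other lists also depended on the setting: that of LXR targets, 0.16 over 7 members, lay between 0.10 with no filter and 0.64 at a mean FPKM of at least 5, that of histones, 0.14, between 0.00 and 0.23 in the same settings, that of the CEACAM family, 0.16 over 2 members, between 0.01 with no filter and 0.22 with a pseudocount of 0.1, and that of complement, -0.17, between -0.23 and 0.08. Without the replicate block, 47 genes were called, 33 higher and 14 lower, and in cells with TGF-β 127. Of the named genes called, 159 were no longer called without the block, 46 without replicate 3, 109 without replicate 1, 112 without replicate 2 and 45 with no filter on FPKM. With no filter, 609 genes were higher. With each library centred on its median, 777 were higher and 892 lower, against 916 and 758. At a log2 fold change of at least 1, 11 genes were called, 7 higher and 4 lower, and 18 in cells with TGF-β. Over the alternatives the calls ran from 47 without the block to 2446 with library weights, which were 1324 higher and 1122 lower. Using only the 6 libraries compared gave 1336, 734 higher and 602 lower. Leaving out 1 control or NH4Cl library, or a replicate number from all 4 groups, gave from 218 to 1398 calls, from 127 to 755 higher and from 91 to 643 lower, and leaving out 1 library of cells with TGF-β gave from 1476 to 1786, from 822 to 980 higher and from 654 to 806 lower. In cells with TGF-β, leaving out replicates gave from 546 to 1798, and using only its own 6 libraries gave 1125. The interaction, 0 genes by limma with 537 at an unadjusted p under 0.05, gave from 0 to 1, with 1 without control replicate 2, without TGF-β replicate 3 and without replicate 3. After seeing the data, replicate 3 as a batch gave 989 higher and 804 lower, and exchanging replicates 1 and 2 gave 932 and 766. The cause of these differences was not tested. Where leaving out a library left a group with 2 samples, the spread was pooled over groups. The CEACAM list had no member at a mean FPKM of at least 5 and so no median there. The deposited unit is FPKM, and no count model was run on the reads recovered from it.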

Other observations

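In the nuclear genes of the respiratory chain, 5 of 80 rose and 0 fell (median 0.05), and in genes of the mitochondrial genome, 0 of 13 rose and 0 fell (median 0.08). Among cytosolic ribosomal proteins, 0 of 80 rose and 5 fell (median -0.04). Of replication-dependent histones, 4 of 19 rose and 0 fell (median 0.14), and of Rab GTPases, 5 of 43 rose and 2 fell (median 0.06), with RAB32, of lysosome-related organelles, at 0.40 (limma adjusted p = 0.00757). Of complement genes, 1 of 9 rose and 4 fell (median -0.17), with C3, the central component, at -0.60 (limma adjusted p = 0.00758) and the protease CFD at -0.57 (limma adjusted p = 0.00125). Of interferon-stimulated genes, 0 of 23 rose and 3 fell (median -0.09), with IFI6 at -0.49 (limma adjusted p = 0.0279). Over all genes tested, 7.42% were higher and 6.14% lower, against 6.25% higher in the respiratory chain and 6.25% lower among ribosomal proteins. Without replicate 3, 1 rose and 0 fell in the respiratory chain, 0 rose and 0 fell in the mitochondrial genome, 0 rose and 1 fell among ribosomal proteins, 0 rose and 0 fell among histones, 6 rose and 1 fell among Rab GTPases, 1 rose and 3 fell among complement genes and 0 rose and 4 fell among interferon-stimulated genes.

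For regulators of apoptosis, 4 of 26 rose and 2 fell (median 0.01), with BBC3, which promotes apoptosis, at 0.39 (limma adjusted p = 0.00514) and BCL2L1, which opposes apoptosis, at -0.30 (limma adjusted p = 0.000387). For immediate early genes, 4 of 24 rose and 0 fell (median 0.05), FOS at 0.43 (limma adjusted p = 0.017) and DUSP1 at 0.37 (limma adjusted p = 0.00367), and for EGFR ligands and ERK feedback, 2 of 20 rose and 1 fell (median 0.02). Of glycolytic enzymes, 5 of 23 rose and 3 fell (median 0.03), with PKLR, of pyruvate kinase, at 0.76 (limma adjusted p = 0.000985) but with a mean of 0.652 FPKM in the controls and 1.80 FPKM with NH4Cl, so that it passed the filter through the libraries where it was high, and GAPDH at -0.18 (limma adjusted p = 0.00614). Of hypoxia targets, 3 of 18 rose and 0 fell (median 0.10), of metallothioneins and zinc transporters, 1 of 18 rose and 1 fell (median -0.03), and of the CEACAM family, 0 of 2 rose and 0 fell (median 0.16). Leaving out replicate 3, 1 rose and 3 fell among regulators of apoptosis (median -0.06), 4 rose and 1 fell among immediate early genes, 1 rose and 1 fell in the EGFR list, 4 rose and 1 fell in glycolysis, 1 rose and 0 fell among hypoxia targets, 0 rose and 0 fell among metallothioneins and zinc transporters and 0 rose and 0 fell in the CEACAM family. Against 7.42% higher and 6.14% lower over all genes tested, the EGFR list had 10% and 5%, and metallothioneins and zinc transporters 5.56% in each direction, which is near that share. Of the genes named in these paragraphs, CFD and PKLR were called without the block (limma adjusted p 0.0166 and 0.0131).

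In the TGF-β libraries, which are not in the comparison, the difference of replicate 3 from the other replicates had r 0.273 and rho 0.273 with the log2 fold change of NH4Cl over control, across 12341 genes that are not independent replicates. Genes called higher with NH4Cl were higher in that replicate in 674 of 916 (73.6%), against 49.0% over all genes tested, and genes called lower were lower there in 499 of 758 (65.8%), against 51.0%.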
